A study of Homo sapiens with 24 samples.

Results

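Fatty acid synthesis and lipid storage were followed through 35 genes, those of citrate export, acetyl-CoA and palmitate synthesis, desaturation, elongation, acyl-CoA activation, triglyceride assembly, lipid droplets, lipolysis and fatty acid uptake. Members were the rows of the deposited expression table whose gene symbol is on that list, and all 35 were found among its 18889 genes. RNA was sequenced from HCC1500, ZR-75-30 and MDA-MB-175, established human breast cancer cell lines that express estrogen receptor (ER+). Each line was kept for 48 hours in medium with either 5 mM glucose (low glucose, the control) or 25 mM glucose (high glucose, a model of hyperglycemia), with 4 cultures in each of the 6 groups and 24 in all. The study's methods describe cells conditioned in low glucose and then held in medium without serum, and they name an osmotic control in only some experiments, so that here the amount of sugar and the osmolarity of the medium cannot be told apart. Each line is the progeny of 1 tumor and stands for itself. Nothing in the labels says how separate the 4 cultures of a group were, so p-values measure the spread between these cultures, which may be technical. In such bulk RNA, fewer cells of a kind and less RNA per cell cannot be told apart.

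In lipogenic cells, citrate leaves the mitochondrion and is split into acetyl-CoA, which is carboxylated to malonyl-CoA and built into palmitate. Palmitate is then elongated and desaturated, activated to acyl-CoA, and stored as triglyceride in lipid droplets, from which lipases release it again. Breast cancer cells are known for running this synthesis at a high rate, and its genes are under the control of SREBP-1, which answers to sterols and insulin, and of ChREBP, which answers to glucose metabolites.

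The values below are the deposited ones, whole reads divided by 1 factor per culture, with 1 read worth between 0.3176 and 0.7635, and between 9140024 and 17998819 recovered reads per culture. They compare a gene between cultures but carry no length correction, so levels of different genes are compared only per kb of exons. A change is the difference of mean log2(value + 1), high minus low glucose, in limma, and is called at an adjusted p under 0.05 over all genes tested. TXNIP, a gene induced by glucose, rose in all 3 lines (log2 change 0.39 ± 0.04 (SE), limma adjusted p = 1.1e-06 in MDA-MB-175, 0.76 ± 0.04 with limma adjusted p = 3.6e-11 in ZR-75-30, 1.02 ± 0.07 with limma adjusted p = 7.5e-05 in HCC1500 and 0.99 ± 0.03 there without high glucose replicate 3). ARRDC4, its relative, rose in MDA-MB-175 (log2 change 0.41 ± 0.08 (SE), limma adjusted p = 0.00144) and ZR-75-30 (log2 change 0.41 ± 0.11 (SE), limma adjusted p = 0.00467) and was at 0.39 ± 0.13 in HCC1500 (limma adjusted p = 0.0704), where it was called without high glucose replicate 3 (0.37 ± 0.12, limma adjusted p = 0.01). Of 11 luminal epithelial markers, 10 had a mean of 10 or more at low glucose in both ZR-75-30 and MDA-MB-175, and 11 did in HCC1500, with PGR at 0.614 and 0.268 in that pair of lines and CDH1 at 55.6 in ZR-75-30. Of 8 adipocyte markers, 4 were in the table, and their sum stayed between 3.38 and 216 against 41841 to 87794 for the luminal list, with FABP4 at a mean of 150.4 in MDA-MB-175 and at 0 in the other lines at low glucose. Sums over fibroblast (8 of 8 markers in the table), immune (3 of 6) and endothelial (3 of 4) genes ran from 78.6 to 295, from 2.15 to 43.9 and from 0 to 95.3, while the immune sum was higher at high glucose in ZR-75-30, at 33.6 to 43.9 against 5.54 to 6.84 (nearly all CD68), and in HCC1500, at 11.2 to 29.0 against 2.15 to 5.08 (mostly CD14), and its part in the results was not tested.

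High glucose replicate 3 of HCC1500 stood apart. Its mean correlation with the rest of its group was 0.914 on log2 values, while every other culture had 0.989 or more, and its values summed to 7319781 against 5559394 to 5716906 in the other HCC1500 cultures. Glucose changes named below for HCC1500 are given with it and without it.

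Glucose moved lipid genes in each line, with more falls than rises in ZR-75-30 and HCC1500. In MDA-MB-175, 8 of the 34 members tested rose at high glucose and 7 fell, where 11.9% of all genes tested rose and 13.7% fell. In ZR-75-30, 10 of 33 rose and 16 fell, where 23.4% of all genes rose and 22.7% fell. In HCC1500, 2 of 33 rose and 11 fell, beside 7.46% and 13% of all genes. Without high glucose replicate 3, 3 of 33 members rose and 21 fell in HCC1500, beside 20.9% and 37.7% of all genes. The median change over the members tested was -0.31 for HCC1500 (-0.33 without replicate 3), -0.14 for ZR-75-30 and 0.05 for MDA-MB-175, where the medians over all genes tested were -0.06 (-0.12 without replicate 3), 0.01 and -0.02.

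A total of 7 members were called in all 3 lines, 10 in a pair of lines, 13 in 1 line, and 5 (ACACA, ELOVL1, FABP5, HILPDA and PNPLA3) in none. Without replicate 3 of HCC1500 these counts were 9, 14, 10 and 2. Shares of all genes were not computed for these patterns or for the opposite calls below, so both only describe the members. Among members called anywhere, 6 were called in opposite directions in different lines (ACSS2, ELOVL5, LPIN1, MGLL, PNPLA2 and SCD). Without replicate 3 of HCC1500 those with opposite calls were 9, with AGPAT2, DGAT1 and FADS3 added. With all cultures, the other 24 moved in 1 direction wherever they were called. Of these 24, 13 were called in only 1 line, so that no opposite call could arise. The moderated F test of the response over lines called 22 of the 35 members (29.3% of all genes tested), and 28 without replicate 3 (48.6% of all genes). Both counts include ELOVL2, with at most 1 read per culture in ZR-75-30, and THRSP, at 0 in MDA-MB-175. Neither gene could show a response in that line, so for them the test does not compare responses in all 3 lines.

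**Figure D1:**
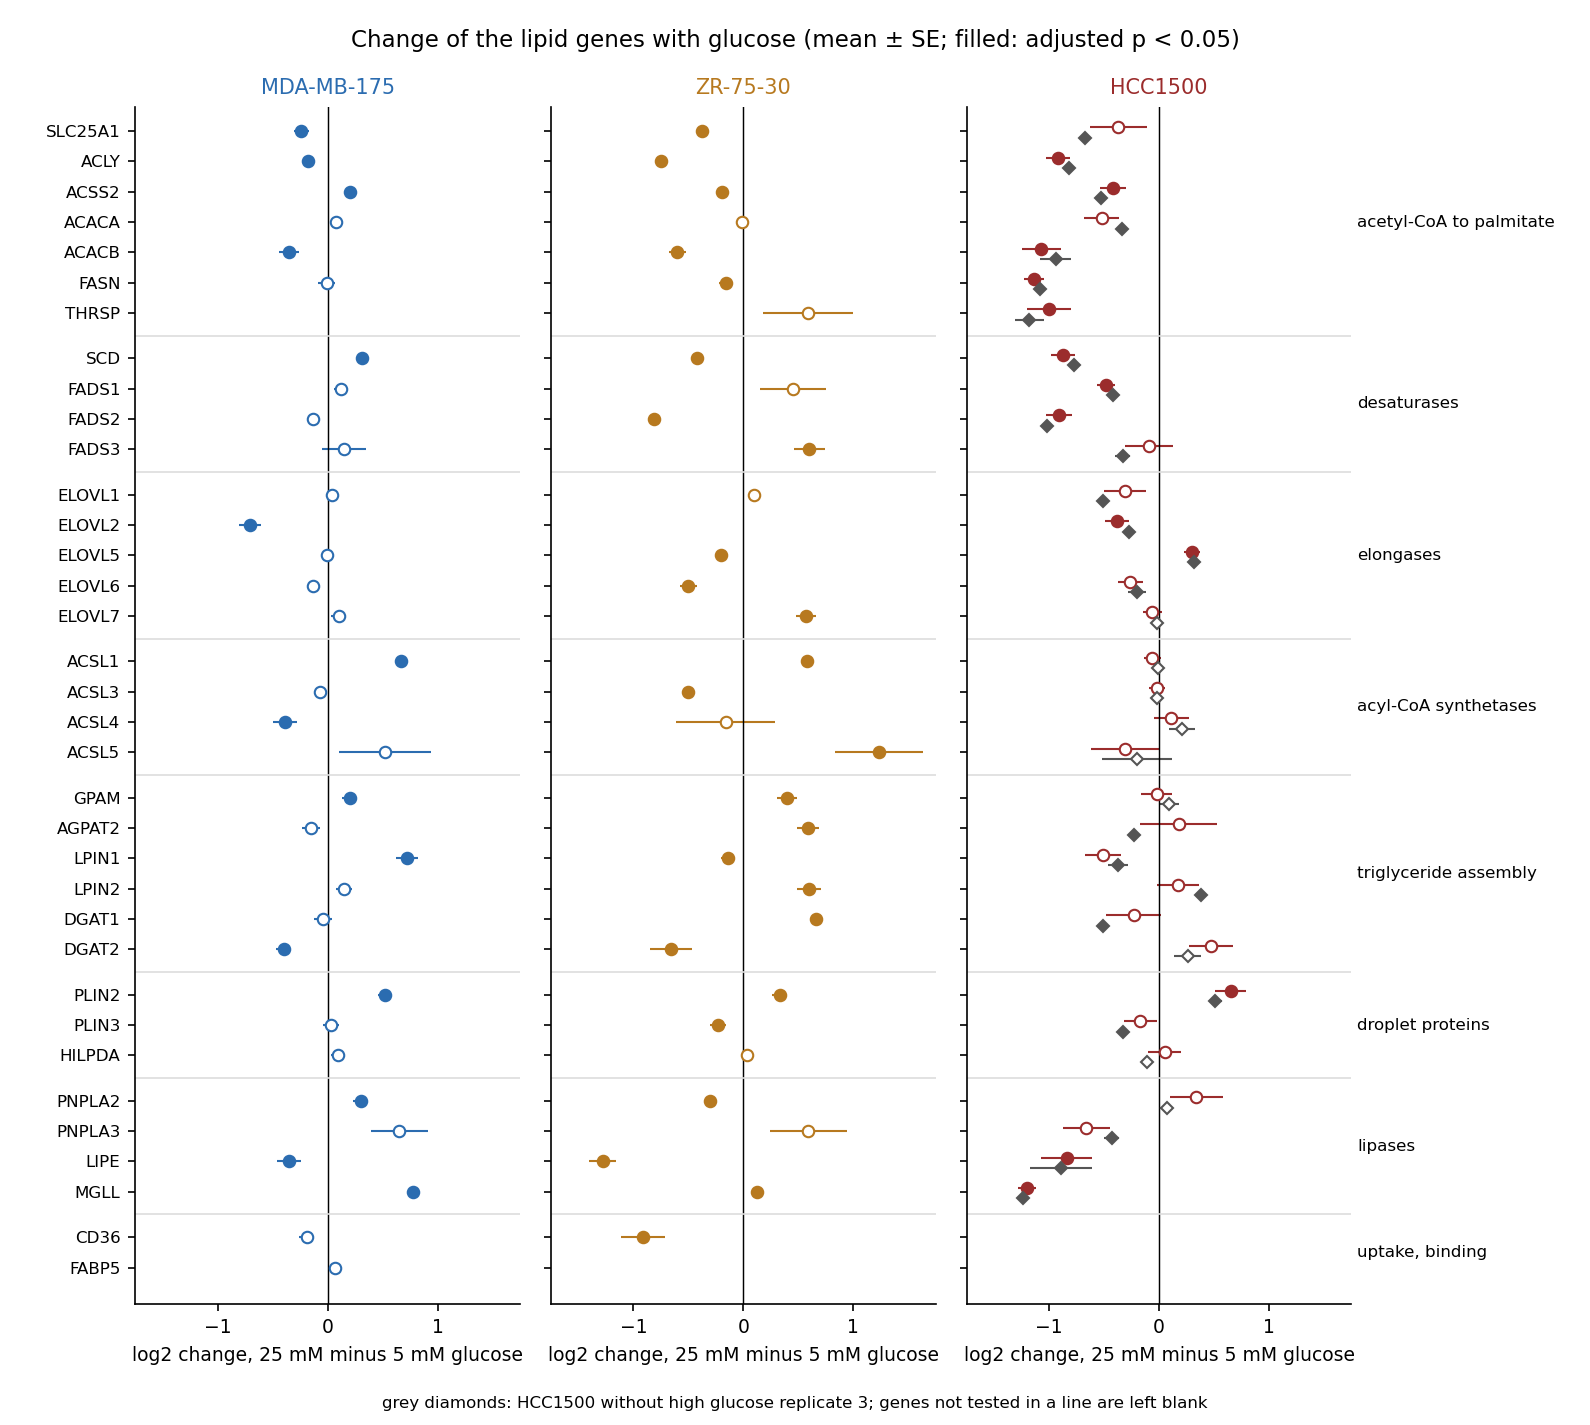
Each point is the log2 change of 1 gene from 5 mM to 25 mM glucose with its standard error, in MDA-MB-175 (left), ZR-75-30 (middle) and HCC1500 (right). Filled points have an adjusted p under 0.05, grey diamonds are HCC1500 without high glucose replicate 3, and genes are grouped by role. PLIN2 lies to the right of 0 and ACLY, ACACB and LIPE to the left in every panel, while MGLL runs from 0.78 in MDA-MB-175 to -1.20 in HCC1500.

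Of the 31 members tested in every line, 4 were called in the same direction in all 3. PLIN2, a protein that coats lipid droplets, rose in each line (1.81% of the 14636 genes tested in all lines were called higher in each). ACLY, ACACB and LIPE fell in each line (3.32% of those genes were called lower in each). SLC25A1 joined them without replicate 3 of HCC1500. Their promoters are shown because they are the members that moved alike. RefSeq gives 1 start for PLIN2, a pair of starts a short distance apart for ACLY (only the first is printed), and a pair of separate starts for ACACB and for LIPE, and the counts do not tell which start was used. Each run holds the 250 bases before the start on the gene's own strand in GRCh38.p14, and capitals mark matches on either strand to the E-box CACGTG, the sterol element TCACNCCAC, the CCAAT box CCAAT and the GC box GGGCGG.

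PLIN2 (chr9:19127493-19127742, minus strand): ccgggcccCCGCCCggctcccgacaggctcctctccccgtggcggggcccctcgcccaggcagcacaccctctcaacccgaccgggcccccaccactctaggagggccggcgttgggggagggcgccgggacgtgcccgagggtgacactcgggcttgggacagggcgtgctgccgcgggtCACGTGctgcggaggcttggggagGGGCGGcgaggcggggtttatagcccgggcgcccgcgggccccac
ACLY (chr17:41919023-41919272, minus strand): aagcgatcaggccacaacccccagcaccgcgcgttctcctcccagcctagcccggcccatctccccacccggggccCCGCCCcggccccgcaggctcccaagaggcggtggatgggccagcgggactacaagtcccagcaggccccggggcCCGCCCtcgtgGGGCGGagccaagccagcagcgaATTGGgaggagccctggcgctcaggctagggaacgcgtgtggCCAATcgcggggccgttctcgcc
ACACB, upstream start (chr12:109116337-109116586, plus strand): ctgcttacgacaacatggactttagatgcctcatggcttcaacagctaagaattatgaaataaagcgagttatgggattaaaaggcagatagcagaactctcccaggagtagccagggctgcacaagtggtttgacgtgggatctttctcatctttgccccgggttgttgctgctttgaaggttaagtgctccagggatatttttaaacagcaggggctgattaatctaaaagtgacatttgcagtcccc
ACACB, downstream start (chr12:109154429-109154678, plus strand): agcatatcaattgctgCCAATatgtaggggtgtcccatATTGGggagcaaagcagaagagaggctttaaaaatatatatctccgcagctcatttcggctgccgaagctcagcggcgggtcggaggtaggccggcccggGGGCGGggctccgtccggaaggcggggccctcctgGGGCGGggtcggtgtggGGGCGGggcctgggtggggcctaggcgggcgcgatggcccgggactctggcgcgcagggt
LIPE, upstream start (chr19:42427389-42427638, minus strand): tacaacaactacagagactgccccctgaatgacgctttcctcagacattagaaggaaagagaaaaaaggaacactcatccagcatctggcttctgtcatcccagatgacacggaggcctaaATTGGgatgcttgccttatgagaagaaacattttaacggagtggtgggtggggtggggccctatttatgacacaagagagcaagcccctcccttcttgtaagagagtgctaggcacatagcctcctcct
LIPE, downstream start (chr19:42423586-42423835, minus strand): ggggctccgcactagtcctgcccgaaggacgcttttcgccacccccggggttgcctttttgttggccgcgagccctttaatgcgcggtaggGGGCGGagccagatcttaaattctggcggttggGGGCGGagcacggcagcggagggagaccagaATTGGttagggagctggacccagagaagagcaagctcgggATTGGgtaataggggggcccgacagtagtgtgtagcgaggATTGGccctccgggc

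PLIN2, the member that rose in all 3 lines, carries 1 E-box and 2 GC boxes. Whether this E-box has a part in the rise was not tested. The ACLY promoter has 2 CCAAT boxes and 3 GC boxes, the downstream ACACB promoter has 2 and 3, and the downstream LIPE promoter has 3 and 2. The upstream ACACB promoter has no match, and the upstream LIPE promoter has 1 CCAAT box. The table holds 48 promoters of 28 of the 35 members. Over its full windows, which add the 50 bases after the start, the E-box was found in 3 of those 48 promoters (6.2%, against 7.3% of all 35116 promoters), in ELOVL5, LPIN2 and PLIN2. The sterol element was found in 4.2% (ACSL1 and PNPLA2) against 1.1%, the CCAAT box in 41.7% against 34.6%, the GC box in 60.4% against 45.0%, and the hypoxia response core ACGTG, which the E-box contains and which is not in capitals here, in 18.8% against 21.4%. These matches describe letters and not bound sites, and no test was run on them.

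SLC25A1, ACLY, ACSS2, ACACA, ACACB, FASN and THRSP were grouped under citrate export, acetyl-CoA, malonyl-CoA and palmitate. These 7 genes were lower at high glucose where they were called, except ACSS2 in MDA-MB-175. HCC1500 had 5 that fell (all 7 without replicate 3), beside 13% of all genes (37.7% without it). ZR-75-30 also had 5, beside 22.7%. MDA-MB-175 had 3 that fell and 1 that rose among 6 tested, beside 13.7% and 11.9%. So few genes cannot be weighed against these shares. ACLY (ENSG00000131473) encodes ATP citrate lyase, which makes cytosolic acetyl-CoA from citrate. In MDA-MB-175 its values were 2596, 2438, 2529 and 2367 at low glucose and 2215, 2165, 2232 and 2169 at high glucose. In ZR-75-30 they were 2388, 2427, 2551 and 2277 at low glucose and 1408, 1458, 1453 and 1389 at high glucose, and in HCC1500 5540, 5933, 5547 and 5684 at low glucose and 3275, 3174, 2443 and 3162 at high glucose. Low and high glucose cultures did not overlap in any line, and the 4 low glucose values of HCC1500 were the highest of all. ACLY fell in MDA-MB-175 (log2 change -0.18 ± 0.04 (SE), limma adjusted p = 0.00311), in ZR-75-30 (log2 change -0.75 ± 0.04 (SE), limma adjusted p = 2.6e-11) and in HCC1500 (log2 change -0.92 ± 0.11 (SE), limma adjusted p = 6.6e-04). The HCC1500 change was -0.82 ± 0.03 without replicate 3. The fall differed between lines (limma adjusted p of the F test = 7.7e-06), and the response in ZR-75-30 minus that in MDA-MB-175 was -0.58.

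ACACA and ACACB encode the acetyl-CoA carboxylases, the cytosolic enzyme that makes malonyl-CoA for synthesis and the mitochondrial-surface enzyme whose malonyl-CoA restrains fatty acid oxidation. For ACACA (ENSG00000132142) the MDA-MB-175 cultures had 1576, 1787, 1628 and 1716 at low glucose and 1687, 1792, 1871 and 1730 at high glucose. ZR-75-30 had 3159, 3477, 3365 and 3178 at low glucose and 3313, 3205, 3230 and 3320 at high glucose. HCC1500 had 739, 718, 735 and 705 at low glucose and 579, 581, 350.5 and 557 at high glucose. Groups overlapped in the first pair of lines, while all 4 HCC1500 high glucose cultures, and replicate 3 most of all, lay below the low glucose ones. ACACA was not called in MDA-MB-175 (0.08 ± 0.05, limma adjusted p = 0.251), ZR-75-30 (-0.01 ± 0.04, limma adjusted p = 0.836) or HCC1500 (-0.52 ± 0.16, limma adjusted p = 0.0526). It was called lower in HCC1500 without replicate 3 (log2 change -0.34 ± 0.03 (SE), limma adjusted p = 1.3e-07). With all HCC1500 cultures kept, it was also called lower with array weights (-0.35, limma adjusted p = 2.1e-06) and after removal of a length trend (-0.35, limma adjusted p = 0.0209). For ACACB (ENSG00000076555) the values in MDA-MB-175 were 142, 130.0, 151 and 140.4 at low glucose and 94.02, 125, 112 and 111 at high glucose. In ZR-75-30 they were 193, 235, 226 and 187 at low glucose and 139.6, 145, 135 and 130.2 at high glucose. In HCC1500 they were 53.2, 57.2, 51.00 and 62.4 at low glucose and 34.8, 24.9, 20.05 and 26.8 at high glucose. No pair of groups overlapped, and per kb of exons ACACB stood at 9.70, 14.5 and 3.86 at low glucose against 129, 253 and 55.7 for ACACA, MDA-MB-175 being first and HCC1500 last. ACACB fell in all 3 lines, with log2 changes of -0.35 ± 0.09 (limma adjusted p = 0.00789), -0.60 ± 0.08 (limma adjusted p = 4.7e-06) and -1.07 ± 0.18 (limma adjusted p = 0.00368, -0.94 ± 0.14 without replicate 3).

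FASN (ENSG00000169710), the fatty acid synthase that builds palmitate, fell most in HCC1500, to below the level of any other group. Its values there were 10690, 11333, 10660 and 11044 at low glucose and 4960, 5310, 4435 and 5234 at high glucose. In MDA-MB-175 they were 19839, 20979, 21276 and 15438 at low glucose and 18970, 19023, 20385 and 17913 at high glucose. In ZR-75-30 they were 21471, 22996, 22208 and 19867 at low glucose and 19975, 19876, 20249 and 17177 at high glucose. Only HCC1500 separated its groups, and low glucose replicate 4 was the lowest culture of its group in the other lines. The fall in HCC1500 was to 0.46 times the low glucose level (log2 change -1.14 ± 0.09 (SE), limma adjusted p = 1.1e-04; -1.08 ± 0.03 without replicate 3). FASN did not pass in MDA-MB-175 (log2 change -0.01 ± 0.08 (SE), limma adjusted p = 0.926), except without low glucose replicate 4 (-0.12, limma adjusted p = 0.0491). In ZR-75-30 the call (log2 change -0.16 ± 0.06 (SE), limma adjusted p = 0.0207) was lost without low glucose replicate 2 (limma adjusted p = 0.0747) or replicate 3 (limma adjusted p = 0.0601). The response differed between lines (limma adjusted p of the F test = 7.2e-07), with HCC1500 minus ZR-75-30 at -0.97 ± 0.13 (SE).

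THRSP (ENSG00000151365), the Spot 14 protein linked to lipogenic tissues, was well covered only in HCC1500. MDA-MB-175 listed it at 0 in all 8 cultures and it was not tested there. In ZR-75-30 the values were 1.66, 0.569, 3.42 and 2.29 at low glucose and 4.17, 1.35, 2.97 and 5.48 at high glucose, from 1 to 8 reads each. In HCC1500 they were 48.3, 46.7, 49.1 and 60.7 at low glucose and 21.2, 22.4, 37.1 and 22.2 at high glucose. The HCC1500 groups did not overlap, and replicate 3 was the highest of the high glucose cultures. THRSP fell in HCC1500 (log2 change -1.0 ± 0.20 (SE), limma adjusted p = 0.00883; -1.18 ± 0.13 without replicate 3) and was not called in ZR-75-30 (log2 change 0.59 ± 0.41 (SE), limma adjusted p = 0.255). At low glucose the HCC1500 mean was at least 31.8-fold higher than 3 reads per culture in MDA-MB-175.

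SLC25A1, the mitochondrial citrate carrier, fell in MDA-MB-175 (log2 change -0.24 ± 0.07 (SE), limma adjusted p = 0.0147) and in ZR-75-30 (log2 change -0.38 ± 0.05 (SE), limma adjusted p = 8.4e-06). In MDA-MB-175 the call was lost without low glucose replicate 3 (limma adjusted p = 0.0557) or high glucose replicate 2 (limma adjusted p = 0.0546). In HCC1500 its low glucose values of 677 to 737 stood against 422 to 474 in high glucose replicates 1, 2 and 4 and 1028 in replicate 3. SLC25A1 was not called there with that culture (-0.37 ± 0.26, limma adjusted p = 0.361) and was called lower without it (-0.67 ± 0.04, limma adjusted p = 2.7e-10). With all cultures kept, it was also called lower with array weights (-0.66, limma adjusted p = 1.5e-08) and after removal of a length trend (-0.39, limma adjusted p = 0.0145). ACSS2, which makes acetyl-CoA from acetate, rose in MDA-MB-175 (log2 change 0.20 ± 0.05 (SE), limma adjusted p = 0.00595) and fell in ZR-75-30 (log2 change -0.19 ± 0.05 (SE), limma adjusted p = 0.00511) and HCC1500 (log2 change -0.42 ± 0.12 (SE), limma adjusted p = 0.0375; -0.53 ± 0.05 without replicate 3), and the lines differed (limma adjusted p of the F test = 6.5e-04). The HCC1500 call of ACSS2 was lost when any other culture of that line was left out, with limma adjusted p = 0.0786 to 0.113, and with the replicate block (limma adjusted p = 0.101).

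**Figure D2:**
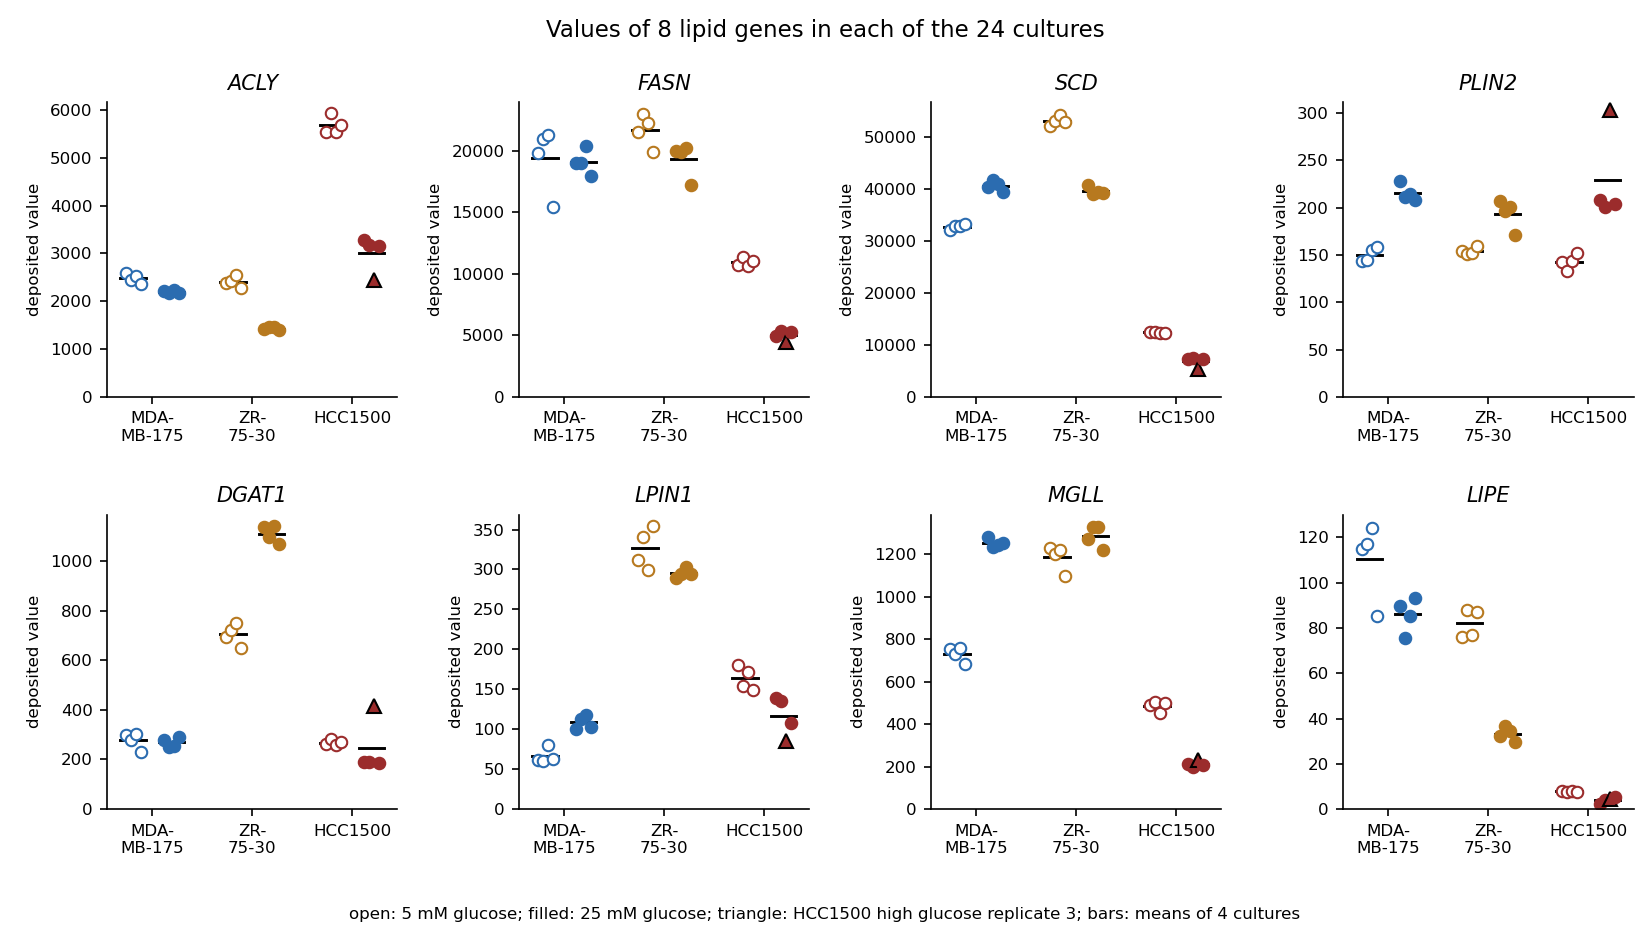
Deposited values of 8 genes in every culture, with open points for 5 mM and filled points for 25 mM glucose, black bars for the mean of 4 cultures, and a triangle for HCC1500 high glucose replicate 3. ACLY, FASN and SCD lie lower at high glucose in HCC1500, PLIN2 lies higher at high glucose in all 3 lines, and MGLL lies higher in MDA-MB-175 and lower in HCC1500.

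SCD (ENSG00000099194), stearoyl-CoA desaturase, which makes oleate, had the highest level per kb of all members in each line, and its response took opposite directions. In MDA-MB-175 its values were 32066, 32912, 32792 and 33195 at low glucose and 40418, 41788, 40983 and 39411 at high glucose. In ZR-75-30 they were 52175, 53085, 54227 and 52837 at low glucose and 40747, 39032, 39328 and 39289 at high glucose. In HCC1500 they were 12445, 12534, 12360 and 12300 at low glucose and 7186, 7477, 5445 and 7186 at high glucose. Groups were fully separated in each line, upward in MDA-MB-175 and downward in the others. SCD rose in MDA-MB-175 (log2 change 0.31 ± 0.04 (SE), limma adjusted p = 4.6e-05), fell in ZR-75-30 (log2 change -0.42 ± 0.04 (SE), limma adjusted p = 2.1e-07) and fell in HCC1500 (log2 change -0.87 ± 0.11 (SE), limma adjusted p = 0.00121; -0.77 ± 0.02 without replicate 3). The difference between lines was itself called (limma adjusted p of the F test = 8.0e-08).

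FADS2 (ENSG00000134824), the delta-6 desaturase that opens the synthesis of polyunsaturated fatty acids, fell in a pair of lines. Its MDA-MB-175 values were 2332, 2165, 2362 and 2014 at low glucose and 2069, 1999, 1985 and 2041 at high glucose. Those of ZR-75-30 were 1315, 1323, 1457 and 1238 at low glucose and 769, 783, 798 and 696 at high glucose, and those of HCC1500 4622, 5167, 4773 and 5022 at low glucose and 2431, 2314, 3344 and 2469 at high glucose. ZR-75-30 and HCC1500 separated their groups, and in HCC1500 replicate 3 was the highest high glucose culture. FADS2 fell in ZR-75-30 (log2 change -0.81 ± 0.05 (SE), limma adjusted p = 4.3e-10) and HCC1500 (log2 change -0.91 ± 0.12 (SE), limma adjusted p = 0.00144; -1.02 ± 0.03 without replicate 3), and did not pass in MDA-MB-175 (log2 change -0.13 ± 0.05 (SE), limma adjusted p = 0.0593). It passed there without low glucose replicate 4 (-0.18, limma adjusted p = 0.00173), after CPM rescaling (-0.15, limma adjusted p = 0.0141), with array weights (-0.16, limma adjusted p = 0.00816) and with the replicate block (-0.13, limma adjusted p = 0.0452). FADS1, the delta-5 desaturase beside it in the genome, fell in HCC1500 (log2 change -0.48 ± 0.08 (SE), limma adjusted p = 0.00474; -0.42 ± 0.04 without replicate 3). It had means of 348 ± 21.3 in MDA-MB-175 and 8.85 ± 3.41 (SD) in ZR-75-30 at low glucose and was not called there (0.12 ± 0.06 and 0.45 ± 0.30), except in MDA-MB-175 without low glucose replicate 4 (0.16, limma adjusted p = 0.0252). FADS1 and FADS2 share 490 exon bases on opposite strands, and whether reads were counted by strand is not stated for these libraries.

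FADS3 (ENSG00000221968), the third gene of that cluster, went the other way in ZR-75-30. There its values were 36.6, 35.3, 30.8 and 41.2 at low glucose and 57.8, 60.1, 57.8 and 44.5 at high glucose, and the groups did not overlap although high glucose replicate 4 was the lowest of its group (log2 change 0.60 ± 0.14 (SE), limma adjusted p = 0.00184). In MDA-MB-175 they were 10.03, 12.7, 16.5 and 11.7 at low glucose and 14.1, 15.3, 14.1 and 12.6 at high glucose (log2 change 0.15 ± 0.20 (SE), limma adjusted p = 0.646). In HCC1500 they were 141, 147, 145 and 153 at low glucose and 121, 103, 229 and 125 at high glucose, so that replicate 3 lay above and the other high glucose cultures below every low glucose culture. FADS3 was not called in HCC1500 with replicate 3 (-0.09 ± 0.22, limma adjusted p = 0.823) and called lower without it (-0.33 ± 0.07, limma adjusted p = 8.5e-04).

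Of the 5 elongases, which add carbon pairs to fatty acids, HCC1500 had 1 that rose and 1 that fell (1 and 3 without replicate 3), ZR-75-30 had 1 that rose and 2 that fell among 4 tested, and MDA-MB-175 had 1 that fell. Too few genes stand in each such group to be set against the shares of all genes given above. ELOVL2 (ENSG00000197977), the elongase of very long polyunsaturated chains, was listed at 0 in 7 of 8 ZR-75-30 cultures and at 0.425, 1 read, in high glucose replicate 3. In MDA-MB-175 its values were 107, 93.1, 98.5 and 113 at low glucose and 61.6, 66.5, 65.2 and 56.3 at high glucose, with no overlap (log2 change -0.71 ± 0.10 (SE), limma adjusted p = 4.1e-05). In HCC1500 they were 1057, 1063, 1065 and 1068 at low glucose and 889.6, 885, 653 and 878 at high glucose, again without overlap, and replicate 3 was the lowest. The HCC1500 fall (log2 change -0.38 ± 0.11 (SE), limma adjusted p = 0.0427; -0.27 ± 0.03 without replicate 3) missed the threshold when any other culture of the line was left out (limma adjusted p = 0.0576 to 0.109), and also after CPM or median-of-ratios rescaling (limma adjusted p = 0.107 and 0.195), in edgeR and DESeq2 (adjusted p = 0.202 and 0.218) and with the replicate block (limma adjusted p = 0.0934). At low glucose ELOVL2 was at least 577-fold higher in HCC1500, and at least 55.9-fold higher in MDA-MB-175, than 3 reads per culture in ZR-75-30.

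ELOVL5, which elongates polyunsaturated chains after the first desaturation, rose in HCC1500 (log2 change 0.30 ± 0.07 (SE), limma adjusted p = 0.0119; 0.32 ± 0.03 without replicate 3) and fell in ZR-75-30 (log2 change -0.20 ± 0.04 (SE), limma adjusted p = 7.5e-04), with MDA-MB-175 at -0.01 ± 0.04. The HCC1500 call was lost without low glucose replicate 2 (limma adjusted p = 0.0524) or replicate 4 (limma adjusted p = 0.051), after CPM rescaling (limma adjusted p = 0.174) and with the replicate block (limma adjusted p = 0.084). ELOVL6, which extends palmitate to stearate, fell in ZR-75-30 (log2 change -0.50 ± 0.08 (SE), limma adjusted p = 6.1e-05). In MDA-MB-175 it was at -0.13 ± 0.05 (limma adjusted p = 0.0521; called without low or high glucose replicate 1, limma adjusted p = 0.0346 and 0.0483) and in HCC1500 at -0.26 ± 0.11 (called without replicate 3, -0.20 ± 0.08). ELOVL7, an elongase of saturated long chains, was called only in ZR-75-30, where it rose (log2 change 0.57 ± 0.09 (SE), limma adjusted p = 4.3e-05), and its response differed between lines (limma adjusted p of the F test = 1.6e-04). ELOVL1, the elongase of saturated very long chains, was at 0.04 ± 0.05 in MDA-MB-175 and 0.10 ± 0.05 in ZR-75-30 (called without high glucose replicate 4, 0.14, limma adjusted p = 0.00723). It was at -0.31 ± 0.19 in HCC1500, where replicate 3 had 1083 and the other high glucose cultures 599 to 641 (called without it, -0.51 ± 0.04, limma adjusted p = 7.5e-09). With all HCC1500 cultures kept, it was also called lower after CPM rescaling (-0.38, limma adjusted p = 0.0394), with array weights (-0.51, limma adjusted p = 1.5e-07) and after removal of a length trend (-0.30, limma adjusted p = 0.00748).

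The long-chain acyl-CoA synthetases, which activate fatty acids for storage or oxidation, rose or fell gene by gene. ACSL1 (ENSG00000151726) had values of 1404, 1483, 1470 and 1520 at low glucose and 2346, 2362, 2309 and 2349 at high glucose in MDA-MB-175. ZR-75-30 had 6411, 6405, 6544 and 6386 at low glucose and 9925, 9519, 9420 and 9518 at high glucose, the highest of the lines. HCC1500 had 717, 736, 747 and 721 at low glucose and 684, 756, 635 and 741 at high glucose. The groups were fully apart in the first pair of lines and overlapped in HCC1500. ACSL1 rose in MDA-MB-175 (log2 change 0.67 ± 0.04 (SE), limma adjusted p = 2.6e-09) and ZR-75-30 (log2 change 0.58 ± 0.03 (SE), limma adjusted p = 1.6e-10), was at -0.06 ± 0.08 in HCC1500 (-0.01 ± 0.04 without replicate 3), and its response differed between lines (limma adjusted p of the F test = 6.1e-08). The HCC1500 minus ZR-75-30 response was -0.63 ± 0.07 (SE).

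ACSL5 (ENSG00000197142) was near the detection limit, with 3.21, 2.68, 0.569 and 5.60 at low glucose and 4.16, 5.11, 1.95 and 6.31 at high glucose in MDA-MB-175. It had 1.11, 1.71, 0 and 1.53 at low glucose and 5.21, 4.05, 2.12 and 3.43 at high glucose in ZR-75-30. HCC1500 had 3.42, 6.35, 4.60 and 7.32 at low glucose and 4.72, 6.47, 2.97 and 2.77 at high glucose. ZR-75-30 alone had no overlap and was called (log2 change 1.23 ± 0.40 (SE), limma adjusted p = 0.0165), a call lost without low glucose replicate 3 (0.91, limma adjusted p = 0.063) or high glucose replicate 1 (1.08, limma adjusted p = 0.0612) and in DESeq2 (adjusted p = 0.0663). ACSL3, the isoform found on nascent lipid droplets, fell in ZR-75-30 (log2 change -0.50 ± 0.03 (SE), limma adjusted p = 1.3e-09) and was at -0.07 ± 0.04 and -0.02 ± 0.07 in MDA-MB-175 and HCC1500 (-0.02 ± 0.03 without replicate 3). ACSL4, which prefers arachidonate, fell in MDA-MB-175 (log2 change -0.39 ± 0.11 (SE), limma adjusted p = 0.0154), a call lost without low glucose replicate 2 (limma adjusted p = 0.051) and in DESeq2 (adjusted p = 0.0534), and was at 0.11 ± 0.16 in HCC1500 (0.21 ± 0.12 without replicate 3). It was at 0.569 to 6.09 in the ZR-75-30 cultures.

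Of the 6 genes of triglyceride assembly, ZR-75-30 had 4 that rose and 2 that fell, beside 23.4% and 22.7% of all genes. MDA-MB-175 had 2 that rose and 1 that fell, beside 11.9% and 13.7%. None was called in HCC1500 with all 4 high glucose cultures, beside 7.46% and 13%. Without replicate 3, 1 rose and 3 fell there, beside 20.9% and 37.7%. So few genes cannot be weighed against these shares. In HCC1500 with all cultures, limma gave DGAT2 and LPIN1 an unadjusted p of 0.0492 and 0.0138, while edgeR and DESeq2 called DGAT2 (adjusted p = 0.0407 and 0.0129). GPAM (ENSG00000119927), the mitochondrial acyltransferase of the first step, had 153, 167, 147 and 145 at low glucose and 172, 174, 184 and 172 at high glucose in MDA-MB-175. In ZR-75-30 it had 93.6, 106, 95.7 and 80.9 at low glucose and 129.7, 128, 116 and 121 at high glucose. In HCC1500 it had 87.03, 89.9, 78.6 and 76.6 at low glucose and 92.03, 82.6, 65.3 and 90.5 at high glucose. The first pair of lines separated their groups and HCC1500 did not. GPAM rose in ZR-75-30 (log2 change 0.40 ± 0.09 (SE), limma adjusted p = 0.00137) and in MDA-MB-175 (log2 change 0.20 ± 0.07 (SE), limma adjusted p = 0.0372). The MDA-MB-175 call was lost when any culture but low glucose replicate 2 was left out (limma adjusted p = 0.0575 to 0.108) or after CPM rescaling (limma adjusted p = 0.0651). HCC1500 was at -0.02 ± 0.14 (0.09 ± 0.09 without replicate 3).

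AGPAT2 (ENSG00000169692), which makes phosphatidic acid, had 252, 229, 244 and 193 at low glucose and 216, 203, 211 and 196 at high glucose in MDA-MB-175. ZR-75-30 had 77.6, 72.8, 79.8 and 67.9 at low glucose and 121, 124, 116 and 92.5 at high glucose. HCC1500 had 234, 243, 255 and 257 at low glucose and 206, 208, 665 and 217 at high glucose, where replicate 3 was far above the rest of its group. AGPAT2 rose in ZR-75-30 (log2 change 0.59 ± 0.10 (SE), limma adjusted p = 1.2e-04), and MDA-MB-175 was at -0.15 ± 0.08 (called without low glucose replicate 4, -0.23, limma adjusted p = 0.0088). Its direction in HCC1500 turned on that culture, from 0.18 ± 0.35 (limma adjusted p = 0.767) with it to -0.23 ± 0.05 (limma adjusted p = 0.00102) without it.

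The lipins, phosphatidate phosphatases that make diacylglycerol, also split by line. LPIN1 (ENSG00000134324) had 61.8, 60.3, 79.7 and 62.1 at low glucose and 100.3, 113, 118 and 103 at high glucose in MDA-MB-175. ZR-75-30 had 312, 341, 299.6 and 354 at low glucose and 289, 294, 303 and 294 at high glucose, and HCC1500 180.1, 154, 172 and 149 at low glucose and 139, 135, 85.4 and 108 at high glucose. It lay higher at high glucose in every MDA-MB-175 culture and lower in every HCC1500 culture, and overlapped in ZR-75-30. LPIN1 rose in MDA-MB-175 (log2 change 0.72 ± 0.10 (SE), limma adjusted p = 8.5e-05). It fell by a little in ZR-75-30 (log2 change -0.14 ± 0.06 (SE), limma adjusted p = 0.0474), a call lost without low glucose replicate 2 or 4 or any of the 4 high glucose cultures (limma adjusted p = 0.0563 to 0.151) and in DESeq2 (adjusted p = 0.0992). In HCC1500 it was at -0.51 ± 0.16 (limma adjusted p = 0.0613), and passed without replicate 3 (-0.37 ± 0.09, limma adjusted p = 0.00171) and without replicate 1 of high glucose (-0.60, limma adjusted p = 0.0491). The lines differed (limma adjusted p of the F test = 2.8e-05). LPIN2 (ENSG00000101577) had 149.7, 151, 143 and 134 at low glucose and 167, 165, 159.7 and 149 at high glucose in MDA-MB-175. It had 153, 152, 139.6 and 97.7 at low glucose and 219.8, 193, 203 and 197 at high glucose in ZR-75-30 and 242, 261, 268 and 239 at low glucose and 342, 331, 183 and 312 at high glucose in HCC1500. LPIN2 rose in ZR-75-30 (log2 change 0.60 ± 0.11 (SE), limma adjusted p = 2.0e-04), was at 0.15 ± 0.07 in MDA-MB-175, and rose in HCC1500 without replicate 3 (0.38 ± 0.05, limma adjusted p = 7.7e-06; 0.17 ± 0.19 with it).

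DGAT1 and DGAT2 catalyze the last step, diacylglycerol to triglyceride, and moved against each other in ZR-75-30. DGAT1 (ENSG00000185000) had 298, 279, 302 and 232 at low glucose and 279, 252, 256 and 290.2 at high glucose in MDA-MB-175. In ZR-75-30 it had 694, 722, 751 and 649.7 at low glucose and 1135, 1097, 1139 and 1068 at high glucose. In HCC1500 it had 262, 280.5, 259 and 272 at low glucose and 189, 191, 415 and 184 at high glucose, replicate 3 being the highest and the other high glucose cultures the lowest of the 8. DGAT1 rose in ZR-75-30 (log2 change 0.66 ± 0.05 (SE), limma adjusted p = 1.3e-09), was at -0.04 ± 0.08 in MDA-MB-175, and in HCC1500 went from -0.23 ± 0.25 (limma adjusted p = 0.575) to -0.51 ± 0.05 (limma adjusted p = 9.1e-08) without replicate 3. For DGAT2 (ENSG00000062282) the values in MDA-MB-175 were 220.3, 199, 193 and 195 at low glucose and 165, 145, 157 and 142 at high glucose. In ZR-75-30 they were 29.9, 24.5, 27.3 and 25.96 at low glucose and 12.5, 17.6, 19.5 and 17.8 at high glucose. In HCC1500 they were 43.3, 42.2, 45.2 and 37.9 at low glucose and 47.2, 54.2, 89.8 and 50.8 at high glucose. No pair of groups overlapped, with HCC1500 higher and the other lines lower at high glucose. DGAT2 fell in MDA-MB-175 (log2 change -0.40 ± 0.07 (SE), limma adjusted p = 4.7e-04) and ZR-75-30 (log2 change -0.66 ± 0.19 (SE), limma adjusted p = 0.00779), was at 0.47 ± 0.20 in HCC1500 (limma adjusted p = 0.147; 0.26 ± 0.12 with limma adjusted p = 0.064 without replicate 3), and the response differed between lines (limma adjusted p of the F test = 9.0e-04).

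PLIN2 (ENSG00000147872), perilipin 2, whose protein is stable only on lipid droplets, was the 1 droplet gene that rose in every line. Its MDA-MB-175 values were 144, 145, 155 and 158 at low glucose and 228, 211, 214 and 208 at high glucose. Those of ZR-75-30 were 154, 151, 152 and 159.6 at low glucose and 207, 196, 201 and 171 at high glucose. Those of HCC1500 were 143, 133, 144 and 152 at low glucose and 208, 200.5, 303 and 204 at high glucose. Every high glucose culture exceeded every low glucose culture of its line, and the low glucose means were 150.4, 154 and 143. PLIN2 rose to 1.43 times the low glucose level in MDA-MB-175 (log2 change 0.52 ± 0.06 (SE), limma adjusted p = 1.6e-05), to 1.25 in ZR-75-30 (log2 change 0.33 ± 0.07 (SE), limma adjusted p = 8.2e-04) and to 1.57 in HCC1500 (log2 change 0.65 ± 0.14 (SE), limma adjusted p = 0.0133; 0.51 ± 0.06 without replicate 3). A difference between lines was not detected (limma adjusted p of the F test = 0.18). PLIN3, the perilipin that moves between cytosol and droplets, fell in ZR-75-30 (log2 change -0.23 ± 0.07 (SE), limma adjusted p = 0.0102), was at 0.03 ± 0.07 in MDA-MB-175, and in HCC1500 passed without replicate 3 (-0.33 ± 0.04; -0.17 ± 0.15 with it). A gene on the opposite strand overlaps 18.3% of its exon bases. HILPDA, the hypoxia-induced inhibitor of droplet lipolysis, was called in no line, with log2 changes of 0.09 ± 0.06, 0.03 ± 0.05 and 0.05 ± 0.15, and its sign in HCC1500 turned without replicate 3 (-0.11 ± 0.05, limma adjusted p = 0.0777).

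The lipases, which take triglyceride apart step by step, split by line. PNPLA2 (ENSG00000177666), adipose triglyceride lipase, opens the sequence. Its MDA-MB-175 values were 1465, 1451, 1480 and 1114 at low glucose and 1795, 1636, 1665 and 1649 at high glucose. In ZR-75-30 they were 825, 858, 872 and 831 at low glucose and 714, 701, 696 and 631 at high glucose, and in HCC1500 197, 199, 192 and 220.5 at low glucose and 212, 197, 443 and 229 at high glucose. Low glucose replicate 4 of MDA-MB-175 and replicate 3 of HCC1500 lay far from their groups. PNPLA2 rose in MDA-MB-175 (log2 change 0.30 ± 0.07 (SE), limma adjusted p = 0.00599), fell in ZR-75-30 (log2 change -0.30 ± 0.04 (SE), limma adjusted p = 1.6e-05), and was at 0.34 ± 0.24 in HCC1500, or 0.07 ± 0.06 without replicate 3 (limma adjusted p = 0.34). Without it, median-of-ratios rescaling, chosen after seeing the data, gave 0.19 (limma adjusted p = 0.0141). Its response differed between lines by a narrow margin (limma adjusted p of the F test = 0.0492, 7.1e-05 without replicate 3). An antisense transcript covers 10.5% of its exon bases.

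LIPE (ENSG00000079435), hormone-sensitive lipase, which cleaves diacylglycerol, had 115, 117, 124 and 85.5 at low glucose and 89.9, 75.5, 85.5 and 93.1 at high glucose in MDA-MB-175. ZR-75-30 had 75.9, 88.1, 76.9 and 87.03 at low glucose and 32.3, 36.5, 34.4 and 29.5 at high glucose. HCC1500 had 7.98, 7.62, 8.05 and 7.75 at low glucose and 2.36, 3.98, 4.46 and 5.54 at high glucose, from 4 to 24 reads each. The groups overlapped in MDA-MB-175 through low glucose replicate 4 and were apart in the other lines. LIPE fell to 0.41 times its low glucose level in ZR-75-30 (log2 change -1.28 ± 0.12 (SE), limma adjusted p = 7.5e-08), and also fell in MDA-MB-175 (log2 change -0.35 ± 0.11 (SE), limma adjusted p = 0.0323) and HCC1500 (log2 change -0.84 ± 0.23 (SE), limma adjusted p = 0.0354; -0.89 ± 0.28 without replicate 3). These last calls were lost on leaving out any of 5 cultures of MDA-MB-175 (limma adjusted p = 0.0686 to 0.105) and any of 6 of HCC1500 (limma adjusted p = 0.0596 to 0.0921). LIPE-AS1 shares 9.7% of its exon bases on the opposite strand.

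MGLL (ENSG00000074416), monoglyceride lipase, the last step, gave the smallest p of all members for a difference between lines. In MDA-MB-175 it had 755, 732, 757 and 681 at low glucose and 1280, 1232, 1244 and 1254 at high glucose. In ZR-75-30 it had 1227, 1199, 1218 and 1098 at low glucose and 1271, 1329, 1325 and 1219 at high glucose. In HCC1500 it had 491, 503, 454 and 499.9 at low glucose and 211, 198, 229 and 207 at high glucose. The high glucose cultures lay wholly above the low glucose ones in MDA-MB-175 and wholly below them in HCC1500. MGLL rose to 1.71 times its low glucose level in MDA-MB-175 (log2 change 0.78 ± 0.04 (SE), limma adjusted p = 2.6e-09) and fell to 0.43 times in HCC1500 (log2 change -1.20 ± 0.08 (SE), limma adjusted p = 5.8e-05; -1.24 ± 0.05 without replicate 3). In ZR-75-30 it was called at 0.12 ± 0.04 (limma adjusted p = 0.0331), a call lost without low glucose replicate 4 or high glucose replicate 2 or 3 (limma adjusted p = 0.0955 to 0.115) or after CPM rescaling (limma adjusted p = 0.108). The F test over lines gave limma adjusted p = 2.2e-13, and HCC1500 minus MDA-MB-175 was -1.98. PNPLA3, a lipid droplet lipase and acyltransferase, was at 55.7 to 151 in HCC1500 and 2.29 to 12.6 in the other lines. It was called in no line (0.65 ± 0.26, 0.59 ± 0.35 and -0.66 ± 0.21), and passed in MDA-MB-175 without high glucose replicate 2 (0.80, limma adjusted p = 0.0445), in ZR-75-30 without low glucose replicate 2 (0.91, limma adjusted p = 0.033) and in HCC1500 without replicate 3 (-0.43 ± 0.07, limma adjusted p = 2.2e-05).

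Of the genes of uptake and binding, CD36 (ENSG00000135218), the fatty acid translocase, had 156, 156, 175 and 172 at low glucose and 151, 133, 141 and 155 at high glucose in MDA-MB-175. In ZR-75-30 it had 20.5, 22.2, 19.4 and 19.8 at low glucose and 10.4, 12.2, 8.50 and 10.97 at high glucose. In HCC1500 it had 0.380, 0.953, 0.383 and 1.29 at low glucose and 2.36, 0, 0 and 0 at high glucose, at most 4 reads, and was not tested. High glucose values lay below low glucose values in the first pair of lines. CD36 fell in ZR-75-30 (log2 change -0.91 ± 0.20 (SE), limma adjusted p = 0.00123) and was at -0.19 ± 0.07 in MDA-MB-175 (limma adjusted p = 0.0761). FABP5, a cytosolic fatty acid binding protein with near-identical copies in the genome, had a low glucose mean of 512 ± 21.2 (SD) in MDA-MB-175 and did not pass (log2 change 0.07 ± 0.05 (SE), limma adjusted p = 0.384). It was listed at 0 in all 8 ZR-75-30 cultures and had 1 read in each of 2 HCC1500 cultures. Its MDA-MB-175 level was at least 278-fold higher than 3 reads per culture in ZR-75-30.

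Before any change of glucose the lines already differed in these genes. At low glucose, with a log2 difference of at least 1 asked for beside the adjusted p, 15 members differed between MDA-MB-175 and ZR-75-30, 5 higher and 10 lower in ZR-75-30 (10.2% and 22.9% of all genes). Between MDA-MB-175 and HCC1500, 7 were higher and 11 lower in HCC1500 (22.1% and 20.6% of all genes). Between ZR-75-30 and HCC1500, 11 were higher and 9 lower in HCC1500 (28.8% and 16.3% of all genes). Per kb of exons, SCD and then FASN led in every line, at 2366 and 1173 for HCC1500, 10120 and 2321 for ZR-75-30, and 6242 and 2079 for MDA-MB-175. The third was ACLY in MDA-MB-175 (477) and HCC1500 (1090) and ACSL1 in ZR-75-30 (989). The triglyceride enzymes and PLIN2 stood far lower, with DGAT1 at 67.2, 170.5 and 65.00 and PLIN2 at 30.01, 30.8 and 28.6 per kb.

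HCC1500 had less SCD (log2 difference -2.10 ± 0.02 (SE), limma adjusted p = 4.7e-18 against ZR-75-30), less ACACA (log2 difference -2.18 ± 0.04 (SE), limma adjusted p = 9.6e-16), less PNPLA2 (log2 difference -2.75 ± 0.08 (SE), limma adjusted p = 7.3e-14 against MDA-MB-175) and less LIPE (log2 difference -3.64 ± 0.12 (SE), limma adjusted p = 4.9e-13 against MDA-MB-175). It had more ACLY (log2 difference 1.19 ± 0.04 (SE), limma adjusted p = 4.8e-13 against MDA-MB-175), more FADS2 (log2 difference 1.88 ± 0.06 (SE), limma adjusted p = 1.6e-13 against ZR-75-30) and more PNPLA3 (log2 difference 4.51 ± 0.28 (SE), limma adjusted p = 7.7e-10 against MDA-MB-175). ZR-75-30 had more ACSL1 (log2 difference 2.13 ± 0.03 (SE), limma adjusted p = 4.7e-17 against MDA-MB-175), DGAT1 (log2 difference 1.35 ± 0.07 (SE), limma adjusted p = 2.6e-10) and LPIN1 (log2 difference 2.30 ± 0.09 (SE), limma adjusted p = 8.8e-12), and less FADS1 (log2 difference -5.23 ± 0.21 (SE), limma adjusted p = 9.7e-12). DGAT2 and CD36 were lower in ZR-75-30 than in MDA-MB-175 (log2 difference -2.86 ± 0.09 (SE), limma adjusted p = 4.9e-13; log2 difference -2.95 ± 0.17 (SE), limma adjusted p = 6.8e-10). FASN fell short of the size asked for, at log2 difference -0.98 ± 0.08 (SE), limma adjusted p = 2.1e-08 in HCC1500 against ZR-75-30. PLIN2 showed no called difference between any pair of lines, with limma adjusted p = 0.593, 0.259 and 0.097.

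**Figure D3:**
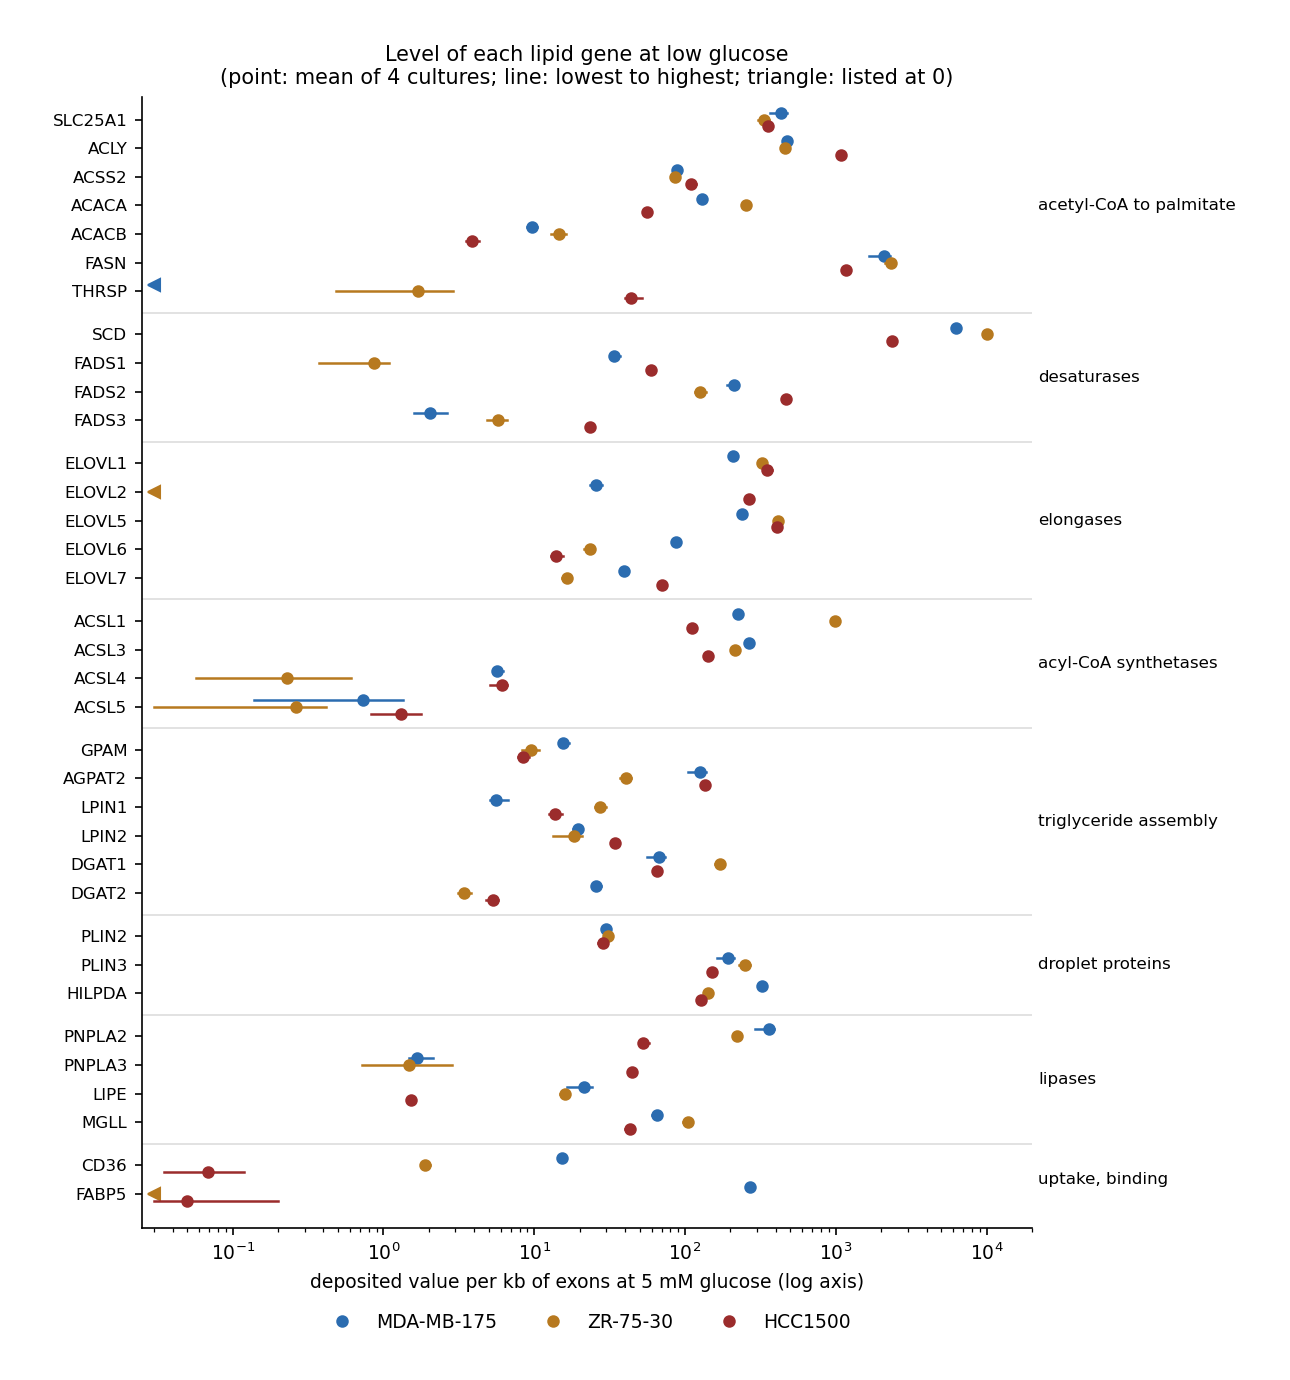
Deposited value per kb of exons at 5 mM glucose on a log axis, with the mean of 4 cultures as a point and the lowest to highest culture as a line, in MDA-MB-175 (blue), ZR-75-30 (ochre) and HCC1500 (red). Triangles at the left edge mark genes listed at 0 in all 4 cultures, THRSP in MDA-MB-175 and ELOVL2 and FABP5 in ZR-75-30, and SCD reaches from 2366 to 10120 per kb.

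How far replicate 3 of HCC1500 lay from its group varied with gene length. The 31 members with a mean of 10 or more in the HCC1500 high glucose cultures were compared. Replicate 3 lay above the mean of the other high glucose cultures for 14 and below it for 17, by more than 0.5 log2 units for 15. The differences ran from -0.91 for PNPLA3 to 1.66 for AGPAT2. Among the 12572 genes with such a mean and a known exon length, it lay above for 7987 and below for 4585, by more than 0.5 log2 units for 7303. Of the 10 members with exons under 4000 bases in all, 7 were above, with a median of 0.69, and of the 21 longer ones 7 were above, with a median of -0.22. Across these 31 members, Spearman's rho with exon length was -0.52, and across those 12572 genes it was -0.56. These genes share the same 4 libraries and are not independent, so no p is given. The cultures carry no label that sets this one apart, and what its profile reflects was not tested.

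**Figure D4:**
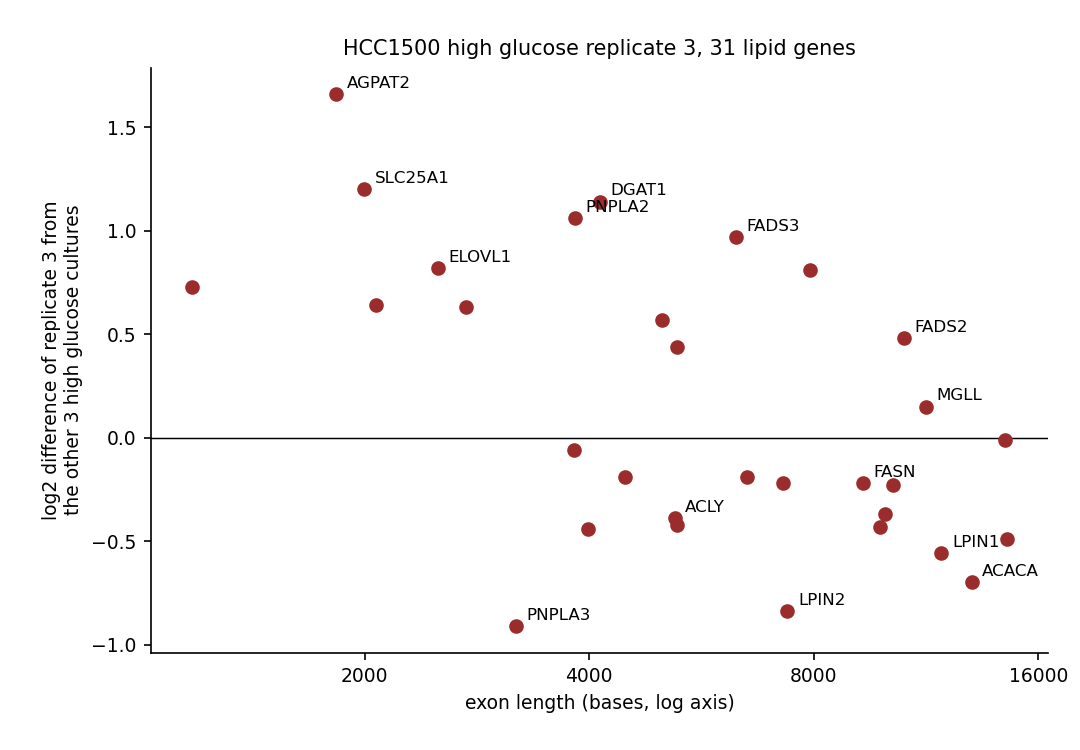
Each point is 1 of 31 lipid genes, placed by its exon length in bases (log axis) and by the log2 difference between HCC1500 high glucose replicate 3 and the mean of the other 3 high glucose cultures. Most short genes, such as AGPAT2 and SLC25A1, lie above 0 and most long ones, such as ACACA and LPIN1, below it. PNPLA3 (3193 bases) is the lowest of all, while FADS3 (6294 bases) and FADS2 (10553 bases) lie above 0.

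Genes around the pathway were counted in 5 further lists. Over all genes tested, the shares that rose and fell were 11.9% and 13.7% in MDA-MB-175, 23.4% and 22.7% for ZR-75-30, and 7.46% and 13% for HCC1500 (20.9% and 37.7% without replicate 3), and many of the counts below lie near them, so they are given as a description. Of 25 regulators of lipogenesis, MDA-MB-175 had 10 that rose and 1 that fell (median 0.16), ZR-75-30 had 12 and 1 (median 0.07), and HCC1500 had 1 and 3 (median -0.10; 6 and 13 of 24 tested, median -0.13, without replicate 3). In ZR-75-30, the line with most calls, the largest rises were those of PPARA and MLXIPL, both at low levels. PPARA (log2 change 1.67 ± 0.30 (SE), limma adjusted p = 1.7e-04), the receptor that drives fatty acid oxidation genes, went from a mean of 7.61 to 24.3. MLXIPL (log2 change 1.01 ± 0.21 (SE), limma adjusted p = 5.6e-04), which encodes ChREBP, went from a mean of 11.5 to 24.4. PPARD, a related receptor, was the 1 regulator that fell there (log2 change -0.66 ± 0.05 (SE), limma adjusted p = 1.6e-09).

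Other members of the same enzyme and droplet families gave 5 rises and 3 falls among 27 tested for MDA-MB-175 (median 0.00), 8 and 5 among 26 for ZR-75-30 (median 0.04), and 4 and 4 among 26 for HCC1500 (median -0.09; 5 and 11, median -0.29, without replicate 3). In ZR-75-30 the rises included ACSL6 (log2 change 0.92 ± 0.35 (SE), limma adjusted p = 0.0413), near the detection limit at a mean of 2.22 to 5.27. They also included AGPAT9 (log2 change 0.79 ± 0.19 (SE), limma adjusted p = 0.00201, mean 21.4 to 37.2), an acyltransferase of the first step. The falls included FABP6 (log2 change -1.24 ± 0.26 (SE), limma adjusted p = 7.7e-04, mean 13.99 to 5.40) and DBI (log2 change -0.83 ± 0.04 (SE), limma adjusted p = 1.5e-11), the acyl-CoA binding protein. Of the list's 40 symbols, 30 were in the table.

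Of 29 fatty acid oxidation genes found, MDA-MB-175 had 5 that rose and 10 that fell (median -0.11), ZR-75-30 had 7 and 12 (median -0.06), and HCC1500 had 2 and 5 among 28 tested (median -0.08; 4 and 18, median -0.41, without replicate 3). Genes called in ZR-75-30 included ACADS (log2 change 1.82 ± 0.19 (SE), limma adjusted p = 3.6e-07), a short-chain dehydrogenase, and CPT1B (log2 change 1.03 ± 0.16 (SE), limma adjusted p = 4.1e-05) upward, and ACOX2 (log2 change -2.28 ± 0.22 (SE), limma adjusted p = 1.1e-07), a peroxisomal oxidase, downward. Of the 14 uptake and lipoprotein genes found, MDA-MB-175 had 3 that rose and 2 that fell among 13 tested (median -0.09), ZR-75-30 had 4 and 3 among 12 (median 0.01), and HCC1500 had 0 and 3 among 12 (median -0.35; 1 and 8, median -0.57, without replicate 3). VLDLR (log2 change 0.98 ± 0.06 (SE), limma adjusted p = 2.1e-10) and SLC27A1 (log2 change 0.91 ± 0.08 (SE), limma adjusted p = 1.6e-08) rose in ZR-75-30, and MFSD2A (log2 change -1.25 ± 0.09 (SE), limma adjusted p = 1.5e-09) and SLC27A2 (log2 change -0.68 ± 0.18 (SE), limma adjusted p = 0.00487) fell.

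The 20 genes that supply NADPH and citrate gave 5 rises and 7 falls for MDA-MB-175 (median -0.09), 5 and 6 for ZR-75-30 (median -0.00), and 1 and 4 for HCC1500 (median -0.17; 2 and 16, median -0.25, without replicate 3). In MDA-MB-175, the line with most calls, ME1 (log2 change 0.59 ± 0.07 (SE), limma adjusted p = 1.6e-05), malic enzyme, rose, and SLC25A10 (log2 change -0.46 ± 0.11 (SE), limma adjusted p = 0.00423) and IDH2 (log2 change -0.34 ± 0.05 (SE), limma adjusted p = 1.1e-04) fell.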

How the data were processed

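Groups came from the sample titles and treatment labels. The authors deposited 1 normalized signal per gene and culture, and the labels state neither its unit nor the counting tool. Every deposited signal was a whole number of reads (within 0.1) divided by 1 factor per culture, in 100.00% of values. The values of a culture summed to between 5559394 and 7594840, more than CPM values can sum to. The signal is therefore not plain CPM, and the factor was not identified. The submitters' processing notes name edgeR and hg38, and the study's methods, written for other samples, name TopHat, hg19 and Ensembl v70. No column lacked a sample, and 9 rows with split symbols were read from the line's end. limma 3.58.1 in R 4.3.3 was run on log2(value + 1) with an intensity trend, each line on its own 8 cultures, over genes at 0.5 or more in at least 4 cultures, with Benjamini-Hochberg adjustment over all genes tested. The response over lines was tested by a moderated F in a fit of all 24 cultures, and levels at low glucose in a fit of 12. Changes on this scale understate those of low genes. Alternatives were a pseudocount of 0.5, no filter, CPM, median-of-ratios, edgeR 4.0.16 and DESeq2 1.42.0 on recovered reads, array weights, removal of a length trend, the replicate block, and leaving out each culture. Exon lengths came from GENCODE 44 lifted to GRCh37 (97.1% of genes, 154 matched by symbol), promoters from RefSeq (GRCh38.p14), and figures were drawn with matplotlib 3.10.9. No 2 cultures agreed within sampling noise (chi-square of at least 1.83 per gene), and the fits were tested on simulated data. Strandedness of counting is not given in the sources used here. Values in every culture are given for members called with an absolute change of at least 0.58 and for 10 control points, and each of 5 further lists names at most 4 genes, the largest rises and falls in the line with most calls, some of which are not reported here. The members and lists were chosen with earlier results of these data known.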

Additional observations from a re-analysis of the deposited data

Results flagged for a closer look

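Among 210 groups of 4 cultures (35 genes in 6 groups), 26 held a culture whose gap to its nearest neighbor exceeded Dixon's 95% limit of 0.829 of the group's range, and chance alone flags about 5% of groups. Of these, 19 were high glucose replicate 3 of HCC1500. Its deposited values were ACLY at 2443, ACACA at 350.5, SCD at 5445, ELOVL1 at 1083, ELOVL2 at 653, ELOVL6 at 75.00, FADS1 at 388, FADS2 at 3344, ACSS2 at 542 and SLC25A1 at 1028. They were also AGPAT2 at 665, DGAT1 at 415, DGAT2 at 89.8, PLIN2 at 303, PLIN3 at 509, THRSP at 37.1, PNPLA2 at 443, PNPLA3 at 55.7 and HILPDA at 382. The same library is thus counted 19 times, and the changes of these genes with and without it are given above. The remaining 7 were FASN in ZR-75-30 high glucose replicate 4 at 17177, FADS3 in ZR-75-30 high glucose replicate 4 at 44.5, ACSL1 in ZR-75-30 low glucose replicate 3 at 6544, ACSS2 in ZR-75-30 high glucose replicate 4 at 369, LPIN1 in MDA-MB-175 low glucose replicate 3 at 79.7, THRSP in HCC1500 low glucose replicate 4 at 60.7 and PNPLA2 in MDA-MB-175 low glucose replicate 4 at 1114.

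The response to glucose differed between the 3 lines for 22 members by the moderated F test over lines in limma, with adjusted p in parentheses. They were ACLY (7.7e-06), ACACA (0.00652), ACACB (0.00969), FASN (7.2e-07), SCD (8.0e-08), ELOVL2 (0.00204), ELOVL5 (1.5e-05), ELOVL6 (0.027), ELOVL7 (1.6e-04), FADS1 (0.0286) and FADS2 (6.3e-05). The others were ACSL1 (6.1e-08), ACSL3 (2.5e-06), ACSS2 (6.5e-04), LPIN1 (2.8e-05), DGAT1 (0.0131), DGAT2 (9.0e-04), THRSP (0.0122), MGLL (2.2e-13), PNPLA2 (0.0492), PNPLA3 (0.0192) and LIPE (0.00813). Of the 22, MGLL, SCD, ACSS2, LPIN1, PNPLA2 and ELOVL5 were called in opposite directions in at least a pair of lines. ELOVL2 in ZR-75-30 and THRSP in MDA-MB-175 were too low to be tested alone. No response could show there, so their F tests do not compare responses in all 3 lines.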

How the results depend on the processing

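Counts of members called in MDA-MB-175 and ZR-75-30, counts of members whose response differed between lines, and the 3 counts at low glucose stayed within 1.5 times the reported ones under a pseudocount of 0.5, no filter, CPM, median-of-ratios, edgeR, DESeq2, array weights, removal of a length trend, and the replicate block. The HCC1500 count of 13 became 25 with array weights, which down-weight discordant cultures. Once high glucose replicate 3 was left out it was 24 (3 higher and 21 lower). In alternatives chosen after seeing the data it was then 27 with median-of-ratios (8 higher and 19 lower) and 26 with edgeR (8 higher and 18 lower). The number of rises without that culture thus depended on the scaling. The 4 members called alike in all 3 lines became 7 with array weights. Leaving out 1 culture at a time gave 9 to 24 members in HCC1500 (24 without high glucose replicate 3), 24 to 26 in ZR-75-30, 12 to 18 in MDA-MB-175, 3 to 6 called alike in all lines (6 without MDA-MB-175 low glucose replicate 4), 20 to 28 with a response that differed (28 without HCC1500 high glucose replicate 3), and 14 to 15, 17 to 18 and 20 to 21 at low glucose for MDA-MB-175 against ZR-75-30, MDA-MB-175 against HCC1500 and ZR-75-30 against HCC1500. With all cultures kept, no scaling moved the median over all genes by more than 0.09. Without high glucose replicate 3, the HCC1500 median over all genes was -0.12 on the deposited values. It was -0.01 there with median-of-ratios and -0.02 with edgeR.

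Same-numbered cultures shared little of their deviations, with mean correlations of 0.02 for HCC1500, 0.04 for ZR-75-30 and 0.05 for MDA-MB-175. Those of other-numbered cultures were -0.01, -0.01 and -0.02. Such values cannot tell whether cultures were handled in pairs. With the number as a replicate block the counts were 9 in HCC1500, 27 in ZR-75-30 and 16 in MDA-MB-175. AGPAT2 in HCC1500 reversed to -0.22 with array weights and to -0.23 without high glucose replicate 3, and leaving out 1 culture gave -0.23 to 0.33. Without that culture, ACSL1 in HCC1500 went from -0.01 on the deposited values (-0.06 with it) to 0.11 with median-of-ratios and with edgeR. ACSL3 went from -0.02 to 0.10 and 0.09. LIPE in HCC1500 lost its call under DESeq2 (-0.86, adjusted p = 0.0831), under the replicate block (adjusted p = 0.0925) and under edgeR without replicate 3 (-0.83, adjusted p = 0.0525), and DGAT2 in HCC1500 gained one under median-of-ratios, edgeR, DESeq2 and array weights, at 0.27 to 0.54. What caused these moves was not tested. Depth limits LIPE and CD36 in HCC1500, ACSL4, ACSL5 and FADS1 in ZR-75-30, and PNPLA3 outside HCC1500.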

Other observations

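Of the family members outside the 35 genes, FABP3, the heart-type fatty acid binding protein, was chosen after its values were seen. It rose in MDA-MB-175 (log2 change 1.66 ± 0.20 (SE), limma adjusted p = 1.2e-05, mean 6.15 to 21.5) and in HCC1500 (log2 change 2.97 ± 0.33 (SE), limma adjusted p = 5.8e-04, mean 5.27 to 53.5), and by 2.62 ± 0.20 in HCC1500 without replicate 3. In ZR-75-30 it was at 0.39 ± 0.45 (limma adjusted p = 0.513), from 0.476 to 0.941. ELOVL4, an elongase of very long chains chosen in the same way, rose in HCC1500 (log2 change 2.23 ± 0.21 (SE), limma adjusted p = 2.7e-04, mean 6.70 to 35.6; 2.07 ± 0.21 without replicate 3). DBI, which carries acyl-CoA, fell in MDA-MB-175 (log2 change -0.37 ± 0.04 (SE), limma adjusted p = 9.1e-06), ZR-75-30 (log2 change -0.83 ± 0.04 (SE), limma adjusted p = 1.5e-11) and HCC1500 (log2 change -0.85 ± 0.23 (SE), limma adjusted p = 0.0331; -1.12 ± 0.03 without replicate 3). PDK4 and SREBF1 were also chosen after their values were seen. PDK4, a kinase that closes pyruvate dehydrogenase, rose in MDA-MB-175 (log2 change 0.68 ± 0.09 (SE), limma adjusted p = 3.5e-05) and HCC1500 (log2 change 1.53 ± 0.34 (SE), limma adjusted p = 0.0137; 1.64 ± 0.40 without replicate 3), where its mean went from 0.727 to 4.24. SREBF1, the gene of SREBP-1, fell in HCC1500 (log2 change -0.48 ± 0.14 (SE), limma adjusted p = 0.0358; -0.62 ± 0.03 without replicate 3) and was at 0.18 ± 0.07 and -0.07 ± 0.05 in MDA-MB-175 and ZR-75-30.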
